A study of Homo sapiens with 6 samples.

Results

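HERV9 is a family of human endogenous retroviruses, and the sequences named LTR12 are its long terminal repeats (LTRs). All sequences whose name starts with HERV9 or is LTR12, alone or with a letter, were taken, which gave 7 of the 1047 sequences in the tables. They were HERV9, the internal sequence of the provirus, and the LTRs LTR12, LTR12B, LTR12C, LTR12D, LTR12E and LTR12F. Each is a consensus that stands for many copies across the genome, so it has no single position, and reads from every copy are pooled in it. The consensus lengths were 8399 bases for HERV9, 1577 for LTR12C, 1322 for LTR12E, 1254 for LTR12D, 826 for LTR12, 667 for LTR12B and 519 for LTR12F.

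An endogenous retrovirus is the remnant of a germline infection. A full copy has an internal part, which once coded for the viral proteins, between an LTR at either end, but recombination between the LTRs often leaves a solitary LTR. The LTR holds the promoter and the signals for ending a transcript. LTRs of HERV9 are known for promoter and enhancer activity in embryonic, germline and blood cells, where some copies start transcripts of neighbouring human genes. The RNA exosome degrades RNA from its 3′ end, including short-lived transcripts from promoters and enhancers, and EXOSC3 encodes a subunit of it.

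RNA was measured in 6 libraries of H1, an established line of human embryonic stem cells. The labels put the cells between passages 40 and 60. All cells carried a hairpin RNA against EXOSC3 that is transcribed when doxycycline (dox) is added. The tested lines, clones 1 and 2, also carried EXOSC3r, a transgene that the hairpin does not target, and the control line carried an empty vector, PB. Each line gave 1 library with and 1 without dox, so that there were 2 EXOSC3r libraries with dox, 2 without, 1 PB library with dox and 1 without. Every line holds the hairpin, so no library shows dox alone, and each EXOSC3r line is 1 clone. EXOSC3 itself was not analysed here. The total of estimated counts assigned to the 1047 sequences lay between 3745262 and 5260196 per library, which is not sequencing depth. Among sequences tied to human pluripotent cells, HERVH, a retrovirus known to be transcribed there, ranked 6 of 699 by count in each of the 6 libraries. By count its LTRs ranked 11 to 20 (LTR7A), 18 to 25 (LTR7Y), 26 to 34 (LTR7B) and 244 to 277 (LTR7C). Count favours long sequences, and by TPM, the authors' value per length, HERVH ranked 30 to 46.

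HERV9 and LTR12 RNA was abundant in every library. The 7 sequences together took 1.10% of assigned counts in clone 1 with dox, 1.26% in clone 1 without dox, 1.50% in clone 2 with dox and 1.26% in clone 2 without dox. In PB cells they took 1.54% with dox and 1.48% without. The 95% Clopper-Pearson interval was 1.09% to 1.11% for the lowest share and 1.53% to 1.55% for the highest; such intervals cover counting error only. These shares also move with Alu, the most abundant short repeat, which took 52.5%, 45.4%, 40.1%, 41.8%, 33.0% and 37.3% of counts in the same order of libraries. Counts were therefore scaled by TMM, a method that sets the typical sequence equal between libraries, and are given as counts per 1000000 (CPM). In these bulk samples, fewer cells transcribing a sequence and less RNA per cell cannot be told apart.

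On the scaled CPM the sum was 14761 in clone 1 with dox and 14448 without, 13702 in clone 2 with dox and 12379 without, and 12684 in PB cells with dox and 12943 without. Both the highest and the lowest of these sums were in EXOSC3r libraries, and the PB libraries lay between them. The sum with dox was 1.02-fold of that without dox in clone 1, 1.11-fold in clone 2 and 0.98-fold in PB cells.

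**Figure D1:**
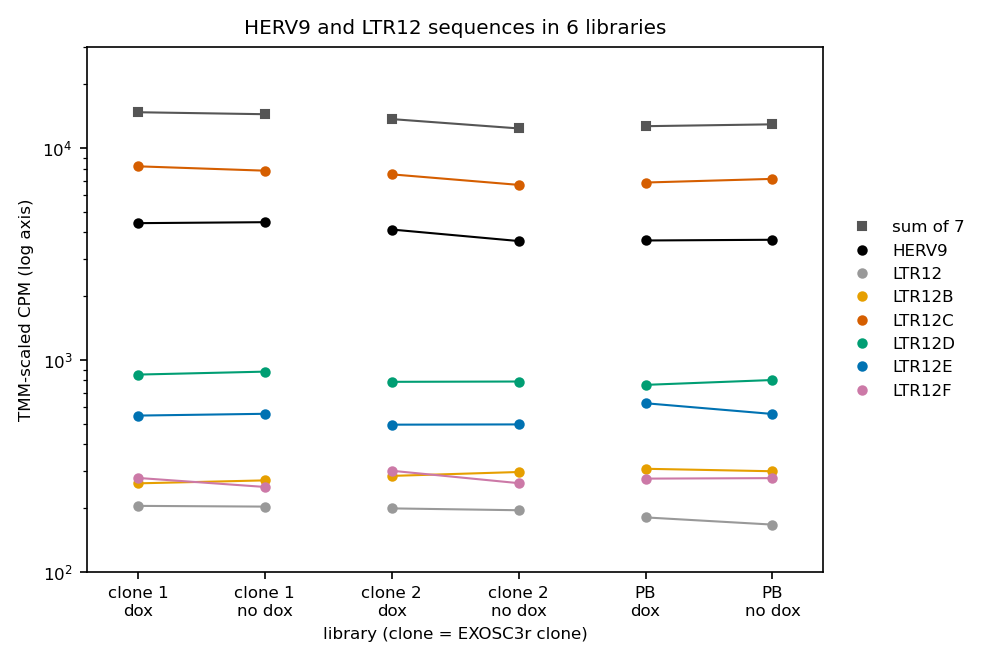
TMM-scaled CPM (log axis) of each of the 7 sequences and of their sum (squares) in the 6 libraries, with a line joining the library with dox and the library without dox of the same line. The lines are nearly flat: the sum lies between 12379 and 14761 CPM, and LTR12C and HERV9 stand above the other LTRs in every library.

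The LTRs differed widely in level per length. In TPM, the authors' value per length, LTR12C ranged from 975 to 1901 over the 6 libraries, LTR12F from 131 to 297, LTR12D from 131 to 273, LTR12B from 87.2 to 235, HERV9 from 90.3 to 175, LTR12E from 79.2 to 210 and LTR12 from 51.9 to 106. LTR12C, the subfamily best known for promoter activity, was the highest of the 7 in each library, at 6.38 to 7.91 times the TPM of LTR12F. It ranked between 22 and 29 by TPM among the 699 sequences tested, whereas the other 6 ranked between 111 and 203. LTR12F and LTR12D were not separated: LTR12F had the higher TPM in 3 of 6 libraries. LTR12B was above HERV9 in 4 of 6 libraries and HERV9 above LTR12E in 4 of 6, so these neighbours were not separated either. LTR12D was above LTR12B and LTR12E above LTR12 in 6 of 6. Like the shares above, TPM also moves with Alu, so its range over libraries does not measure a change between them. In scaled CPM, LTR12C ranged from 6701 to 8200.

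By count, which favours long sequences, LTR12C gave 54.1% to 55.5% of the family's counts and HERV9 28.5% to 30.9%. LTR12D gave 5.75% to 6.39%, LTR12E 3.61% to 4.92%, LTR12B 1.77% to 2.41%, LTR12F 1.74% to 2.19% and LTR12 1.29% to 1.57%. In proportion to their size, the shares of LTR12C and HERV9 thus varied little between libraries, while those of LTR12E and LTR12B varied more. The counts behind these values ranged from 26803 to 38072 for LTR12C and from 780 to 999 for LTR12, the least abundant member. The division of reads between related LTR12 sequences was estimated by the authors' software and is uncertain.

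The level of each LTR relative to the internal sequence does not depend on how libraries are scaled. The TPM of LTR12C was 10.8 times that of HERV9 in clone 1 with dox and 10.2 times without, 10.6 and 10.7 times in clone 2 with and without dox, and 10.9 and 11.3 times in PB cells with and without dox. A complete provirus has 1 internal part and 2 LTRs, and copies in the genome, solitary LTRs included, were not counted here. The ratio of LTR12E to HERV9 was 0.877 and 0.883 in clone 1 with and without dox, 0.850 and 0.963 in clone 2, and 1.205 and 1.067 in PB cells. It was lower in all 4 EXOSC3r libraries than in either PB library. The ratio of LTR12B to HERV9 was 0.966 and 0.981 in clone 1 with and without dox, 1.114 and 1.309 in clone 2, and 1.348 and 1.310 in PB cells. Here clone 2 without dox lay just under the PB library without dox. LTR12F had ratios of 1.446 and 1.287 in clone 1 with and without dox, 1.660 and 1.629 in clone 2, and 1.703 and 1.712 in PB cells.

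In all, 4 of the 6 LTRs (LTR12B, LTR12C, LTR12E and LTR12F) had a lower ratio to HERV9 in all 4 EXOSC3r libraries than in both PB libraries, and 0 had a higher one. Of the other 698 sequences, 21.1% were lower in this sense and 3.01% higher. Some gaps between EXOSC3r and PB were narrow. The closest EXOSC3r and PB ratios were 1.309 and 1.310 for LTR12B and 10.80 and 10.89 for LTR12C. For LTR12F they were 1.660 and 1.703, and for LTR12E 0.963 and 1.067. Counting error of the ratios was not worked out. The ratios share their denominator, and the libraries come from 3 lines, 1 of them PB, so no test was made. With dox, LTR12D had a lower ratio in all 3 lines, a pattern of 20.6% of the 698 sequences, and 0 of the 6 LTRs had a higher one in all 3 (9.46%).

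**Figure D2:**
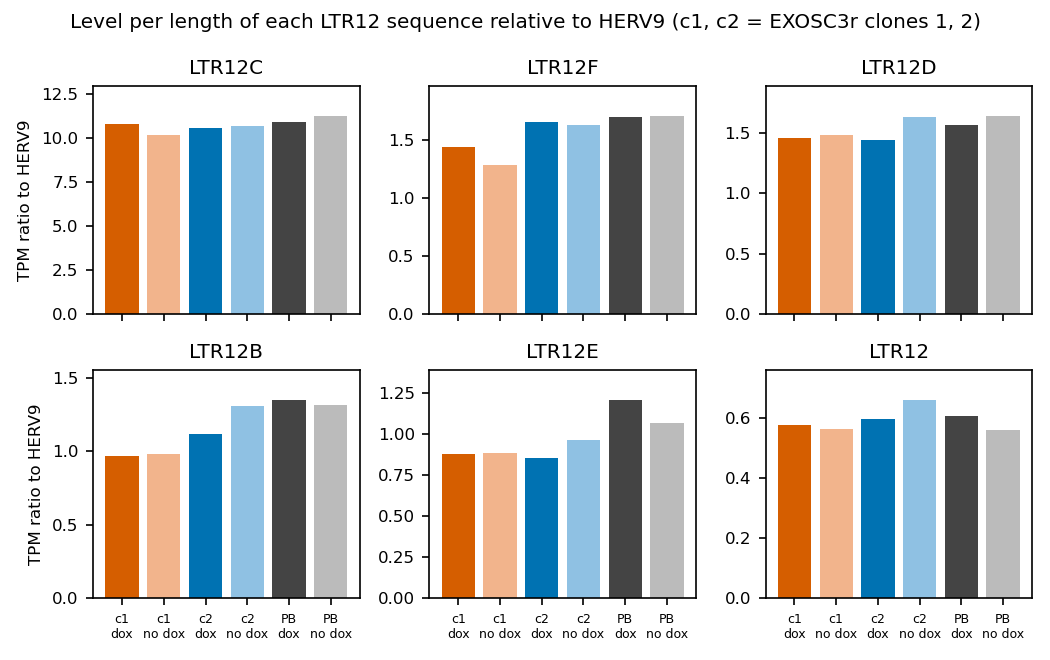
Ratio of the TPM of each LTR12 sequence to that of HERV9 in the same library, with 1 bar per library (c1 and c2 are the EXOSC3r clones) and axes from 0. LTR12C stands at 10.2 to 11.3 in all libraries, and the LTR12E bars of both clones are lower than those of PB cells.

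The first comparison asked what hairpin induction does to HERV9 RNA where the transgene is present. In EXOSC3r cells 0 of the 7 sequences rose or fell with dox, against 0.143% of the 699 sequences tested that were called (1 sequence; edgeR quasi-likelihood test, Benjamini-Hochberg adjusted over all 699). At an unadjusted p under 0.05 there were 0 of the 7 and 22 of the 699, and DESeq2 called 0 of the 7 and 4 of the 699. The median log2 change of the 7 was 0.020, against 0.0052 over all 699. In both clones LTR12, LTR12C and LTR12F had higher values with dox (27.5% of all sequences did), and LTR12B, LTR12D and LTR12E had lower ones (27.2%). For 0 of the 7 were both clones with dox below both without (14.7%).

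LTR12F came closest. It had 277.1 CPM in clone 1 with dox and 251.2 without, and 299.6 CPM in clone 2 with dox and 261.8 without. Both libraries with dox were above both without, a pattern of 15.3% of all sequences. The log2 change was 0.17 ± 0.077 (SE, 2 clones per arm; edgeR adjusted p = 1.00, unadjusted p = 0.068), higher in 2 of 2 clones.

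LTR12C had 8200 CPM in clone 1 with dox and 7820 without, and 7514 CPM in clone 2 with dox and 6701 without. It was higher with dox in both clones, but clone 2 with dox lay below clone 1 without dox, so the arms overlapped. The mean was 7857 ± 485 CPM with dox and 7261 ± 791 without (SD, n = 2 each), so that LTR12C differed by 0.11 ± 0.10 on the log2 scale (SE, edgeR adjusted p = 1.00).

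HERV9 had 4421 CPM in clone 1 with dox and 4467 without, and 4124 CPM in clone 2 with dox and 3639 without. The clones moved by different amounts, with 0.99-fold of the level without dox in clone 1 and 1.13-fold in clone 2. The log2 change of HERV9 was 0.076 ± 0.11 (SE, edgeR adjusted p = 1.00). Without the clone 2 library that had no dox, it was -0.072 for HERV9 and -0.0013 for LTR12C.

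The other 4 LTRs had log2 changes between -0.054 (LTR12B) and 0.020 (LTR12). Over the 7 sequences, the 95% intervals of the dox response in EXOSC3r cells ran from a 0.838-fold to a 1.28-fold change, so a larger change lies outside the interval of any of them. With the clone as a block the test called 9 of 699 sequences, of which 0 were among the 7.

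The second comparison asked the same where only the empty vector is present. In PB cells 0 of the 7 sequences rose or fell with dox, against 0.858% of the 699 that were called (6 sequences, all higher; edgeR, adjusted). At an unadjusted p under 0.05 there were 0 of the 7 and 28 of the 699, and DESeq2 called 0 of the 7 and 6 of the 699. The median log2 change of the 7 was -0.0077, against 0.0037 over all 699. LTR12, LTR12B and LTR12E had higher values with dox in PB cells, as did 51.1% of all sequences. With 1 PB library per arm, each is assumed to vary like a clone.

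LTR12E had 624.1 CPM in PB cells with dox and 555.3 without, the widest change of the 7 in this comparison. The library with dox was also the highest of all 6 for LTR12E, as it was for LTR12B; PB cells with dox were the highest library for 20.3% of all sequences. The log2 change of LTR12E was 0.17 ± 0.12 (SE, edgeR adjusted p = 1.00, 1 library per arm).

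LTR12C had 6875 CPM in PB cells with dox and 7153 without, and HERV9 3662 with dox and 3690 without. Both were within 5% of the level without dox, and their log2 changes were -0.057 ± 0.14 and -0.011 ± 0.16 (SE, edgeR adjusted p = 1.00 for both). For the 2 the interval allowed changes from 0.755-fold to 1.29-fold. Total counts in place of TMM moved the median of all sequences by 0.089, more than the size of any negative change among the 7, and ACTB and GAPDH scaling moved it by 0.17. Under either scaling all 7 were therefore above 0 in PB cells.

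LTR12 had 180.4 CPM in PB cells with dox and 166.8 without, and was the only 1 of the 7 that was higher with dox in all 3 lines (16.6% of all sequences). LTR12D had 762.0 CPM in PB cells with dox and 803.3 without, and was the only 1 that was lower with dox in all 3 lines (15.9%). The log2 ratio of LTR12 was 0.011 in clone 1 and 0.029 in clone 2, each with a counting SE of 0.072, so these signs lay within counting error. That of LTR12D was -0.046 in clone 1 and -0.0049 in clone 2, with counting SEs of 0.035 and 0.036, and the clone 2 sign was again within its error. With total counts the change of LTR12 in EXOSC3r cells was -0.020 and that of LTR12D in PB cells 0.012, where the median of all sequences moved by -0.041 and 0.089. The fitted log2 changes of LTR12 and LTR12D in PB cells were 0.11 ± 0.11 and -0.076 ± 0.11 (SE, edgeR adjusted p = 1.00). Over the 7 sequences, the 95% intervals in PB cells ran from a 0.755-fold to a 1.38-fold change.

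**Figure D3:**
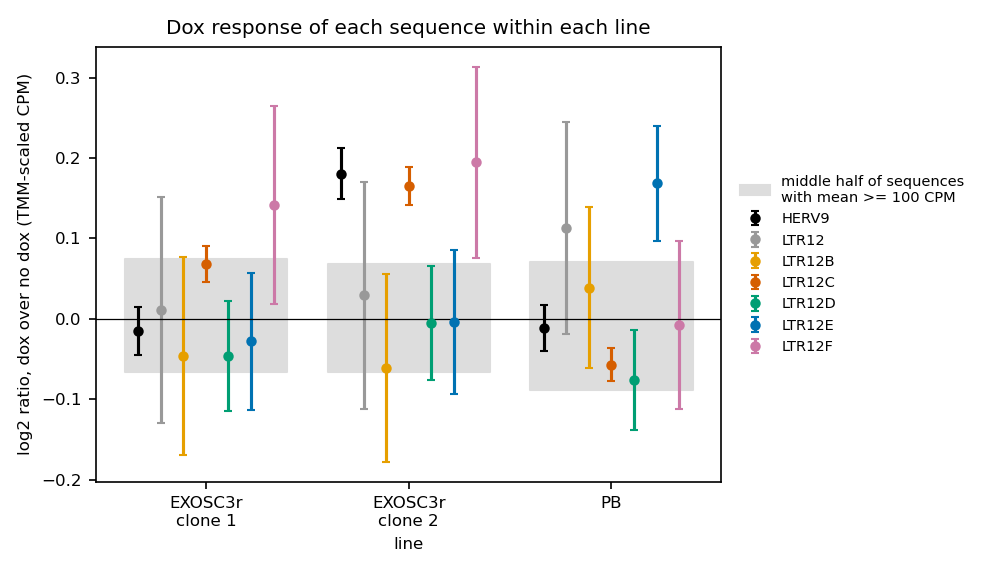
Log2 ratio of TMM-scaled CPM with dox over without dox for each of the 7 sequences within each line; bars are 95% intervals from counting error alone, and grey boxes mark the interquartile range of the 253 sequences with a mean of at least 100 CPM. LTR12F lies above the box in both clones (0.14 and 0.19), as do HERV9 and LTR12C in clone 2 (0.18 and 0.17) and LTR12 and LTR12E in PB cells, and LTR12 and LTR12D alone keep 1 side of 0 in all 3 lines.

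The 3 lines were also fitted together, with the line as a block, to ask for a response to dox common to all. Here 0 of the 7 sequences passed, against 1.72% of the 699 (12 sequences, 6 higher and 6 lower; edgeR, adjusted), with 0 of the 7 and 72 of the 699 at an unadjusted p under 0.05. LTR12F had the widest change, 0.11 ± 0.051 on the log2 scale (SE, 3 lines, edgeR adjusted p = 0.52), and was higher with dox in 2 of 3 lines. LTR12C had 0.059 ± 0.055 and HERV9 0.051 ± 0.053 (adjusted p = 0.78 and 0.81). The intervals of the 7 ran from a 0.911-fold to a 1.17-fold change, the narrowest of the 6 comparisons. Leaving out a clone 1 library, with or without dox, gave 31 calls among all sequences, leaving out clone 2 gave 7 with dox and 30 without, and dropping the block gave 0. None of the 7 was among these calls.

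The responses were then compared directly, as the dox response in EXOSC3r cells minus that in PB cells. In this interaction test 0 of the 7 passed, as did 0 of the 699 (0%; edgeR, adjusted), with 0 of the 7 and 9 of the 699 at an unadjusted p under 0.05; DESeq2 called 3 of 699, of which 0 were among the 7. Under TMM, LTR12C and LTR12F were higher with dox in both clones and lower in PB cells, and LTR12B and LTR12E were the reverse. Of all sequences, 27.5% were higher in both clones and 16.6% in all 3 lines, and 27.2% and 15.9% were lower. Within their counting SE of 0 were LTR12F in PB cells (-0.0077, SE 0.053), LTR12E in both clones and LTR12B in PB cells and clone 1. The other within-line ratios of these sequences exceeded it. The shift of all sequences with total counts put LTR12C and LTR12F above 0 in PB cells as well. The differences of response were 0.17 ± 0.18 for LTR12C, 0.18 ± 0.13 for LTR12F, -0.093 ± 0.14 for LTR12B and -0.19 ± 0.15 for LTR12E (log2, SE, edgeR adjusted p = 1.00 for each). Each difference lay within 2 SE of 0. HERV9 and LTR12D had differences of 0.087 and 0.050; with total counts, which moved the median of all sequences by -0.13, they were -0.037 and -0.082, or 0.092 and 0.048 relative to that median. The intervals of the 7 differences ran from 0.684-fold to 1.51-fold, wider than those of either response alone.

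For scale, HERVH had 20520 and 21047 CPM in clones 1 and 2 with dox, 27573 and 28170 without, and 35679 and 28393 CPM in PB cells with and without dox. Its responses differed by -0.75 ± 0.15 on the log2 scale (EXOSC3r minus PB, SE, edgeR adjusted p = 0.40), a value outside the interval of each HERV9 and LTR12 sequence. HERVK, another endogenous retrovirus, had a CPM that was 1.58-fold of that without dox in clone 1, 0.65-fold in clone 2 and 0.66-fold in PB cells. Between EXOSC3r and PB cells with dox, HERVH had a log2 difference of -0.78 ± 0.10 (SE) and was among the sequences called lower. No test was made of the difference between these families and HERV9.

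The next comparison set the transgene lines against the empty vector under dox, where the hairpin is induced in both. Here 0 of the 7 passed, against 1% of the 699 (7 sequences, all lower in EXOSC3r cells; edgeR, adjusted). At an unadjusted p under 0.05 there were 1 of the 7, LTR12E, and 53 of the 699, and DESeq2 called 0 of the 7 and 7 of the 699. The median log2 difference was 0.11, against 0.0058 over all sequences.

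LTR12E had 545.7 and 494.4 CPM in clones 1 and 2 with dox, against 624.1 CPM in PB cells with dox. Both clones were below PB cells, as they were for LTR12B; this held for 33.6% of all sequences. The log2 difference was -0.26 ± 0.11 (EXOSC3r minus PB, SE, 2 libraries against 1; edgeR adjusted p = 0.61, unadjusted p = 0.045). Over 13 alternatives the difference of LTR12E lay between -0.34 and -0.19 relative to the shift of all sequences, with edgeR, limma or DESeq2 adjusted p from 0.063 (line as a block) to 1.00.

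HERV9 had 4421 and 4124 CPM in clones 1 and 2 with dox, against 3662 CPM in PB cells with dox. LTR12C had 8200 and 7514 CPM in the clones, against 6875 CPM in PB cells. For these, LTR12, LTR12D and LTR12F both clones were above PB cells, a pattern of 34.2% of all sequences. The log2 differences were 0.22 ± 0.14 for HERV9 and 0.19 ± 0.13 for LTR12C (SE, edgeR adjusted p = 0.80 for both). All 5 were higher in EXOSC3r cells under TMM, but HERV9 and LTR12C turned negative when libraries were scaled to total counts (-0.19 and -0.22) or to ACTB and GAPDH (-0.42 and -0.46), scalings that moved the median of all sequences by -0.40 and -0.64. Relative to those medians they were between 0.18 and 0.22. A scaling moves all sequences by nearly the same amount, and taking off the median undoes this. The closeness to the TMM values is therefore no check of the scaling.

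The sum of the 7 was 14761 and 13702 CPM in the clones with dox, against 12684 CPM in PB cells with dox, but 6.79% and 10.7% of the summed ACTB and GAPDH counts in the clones, against 12.2% in PB cells. Relative to the median of all sequences, the log2 difference of the sum was 0.17 under TMM, 0.16 with total counts and 0.16 with ACTB and GAPDH scaling. These values are close because the median was taken off, so they do not check the scaling. The intervals of the 7 members under TMM ran from 0.698-fold to 1.47-fold.

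Between EXOSC3r and PB cells without dox, 0 of the 7 passed, as did 0 of the 699 (0%; edgeR, adjusted), with 1 of the 7, LTR12, and 16 of the 699 at an unadjusted p under 0.05; DESeq2 also called 0. Both clones were above PB cells for LTR12 (34.3% of all sequences) and below for LTR12B and LTR12F (34.3%). LTR12 had 202.9 and 195.0 CPM in clones 1 and 2 without dox, against 166.8 CPM in PB cells without dox. With dox it had 204.5 and 199.0 CPM in the clones, against 180.4 CPM in PB cells. Under TMM all 4 EXOSC3r libraries were above both PB libraries for LTR12, a pattern of 11.6% of all sequences. The log2 difference of LTR12 without dox was 0.25 ± 0.096 (SE, edgeR adjusted p = 0.97, unadjusted p = 0.037). Total counts and ACTB and GAPDH scaling moved the median of all sequences by -0.27 and -0.48 in this comparison. The value of LTR12 was then -0.021 and -0.23. Relative to those medians it was 0.25 under both, which follows from taking off the median and is no check of the scaling.

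LTR12B was the reverse of LTR12, with 261.2 and 269.8 CPM in clone 1 with and without dox, 283.3 and 295.5 CPM in clone 2, and 306.1 and 298.0 CPM in PB cells. All 4 EXOSC3r libraries were below both PB libraries, a pattern of 10% of all sequences. Clone 2 without dox (295.5 CPM) lay just under PB cells without dox (298.0 CPM). The counting error of that gap was not worked out. For the dox ratio of LTR12B within a line, the counting SE was 0.051 to 0.063 on the log2 scale. The log2 difference of LTR12B was -0.17 ± 0.10 with dox and -0.076 ± 0.10 without (SE, edgeR adjusted p = 0.80 and 0.97). Since the comparisons with and without dox use different libraries of the same lines, they are not independent.

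HERV9 without dox had 4467 and 3639 CPM in clones 1 and 2, against 3690 CPM in PB cells, which lay between the clones. LTR12C had 7820 and 6701 CPM in the clones, against 7153 CPM in PB cells, again between them. Without the clone 1 library that had no dox, the log2 difference was -0.020 for HERV9 and -0.094 for LTR12C. With both clones, the log2 differences of HERV9 and LTR12C without dox were 0.14 ± 0.14 and 0.022 ± 0.12 (SE, edgeR adjusted p = 0.97 and 0.98). Both are smaller than the gap between the clones, described next. The intervals of the 7 without dox ran from 0.793-fold to 1.40-fold.

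**Figure D4:**
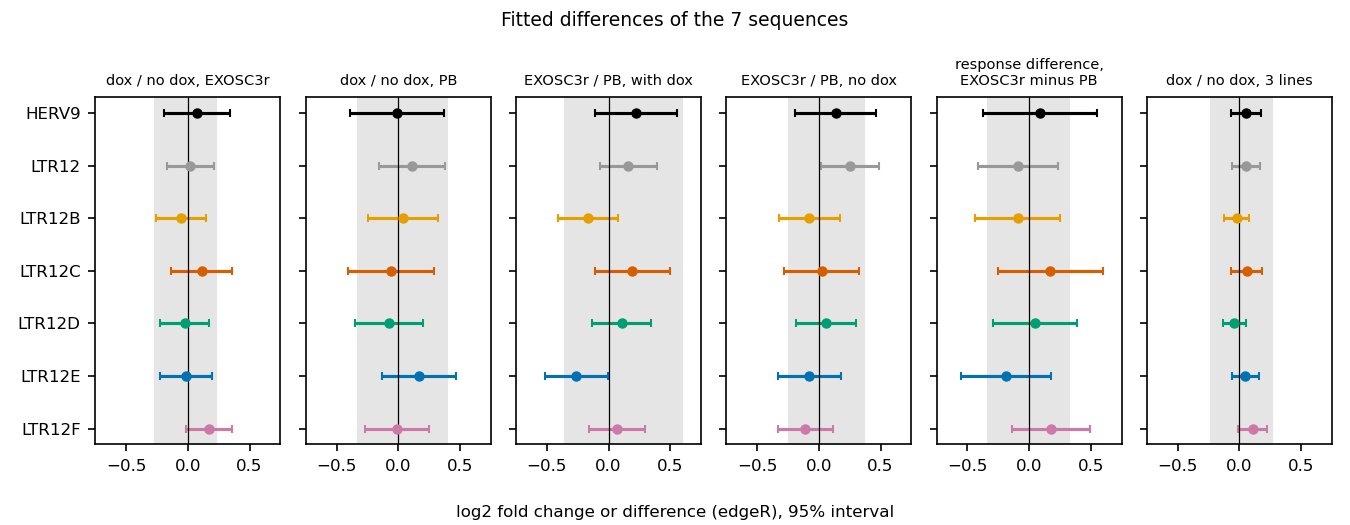
Fitted log2 fold change or difference (x axis) of each of the 7 sequences in the 6 comparisons, with its 95% interval; grey bands hold the central 95% of the 253 sequences with a mean of at least 100 CPM. The points lie within the grey bands, and the intervals reach 0 except those of LTR12E between EXOSC3r and PB cells with dox and LTR12 without dox, neither of which passed after adjustment.

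The EXOSC3r clones also differed from each other. Without dox, HERV9 in clone 2 was 0.815-fold of clone 1, LTR12C 0.857-fold, LTR12E 0.891-fold, LTR12D 0.898-fold and LTR12 0.961-fold. With dox the same 5 sequences were at 0.933-fold, 0.916-fold, 0.906-fold, 0.924-fold and 0.973-fold. LTR12B and LTR12F, which have the shortest consensus sequences of the 7, were instead at 1.10-fold and 1.04-fold without dox and 1.08-fold with dox. Over the 84 sequences under 700 bases with a mean of at least 100 CPM, the median log2 ratio of clone 2 to clone 1 was -0.035 without dox and -0.0084 with dox; over the 169 longer ones it was -0.0031 without dox and -0.013 with dox. The part of length in these ratios was not tested. There was 1 library per clone and arm, so these ratios were not tested. The gap between clones in HERV9 without dox, a log2 ratio of -0.30, exceeded the log2 change with dox of every member in EXOSC3r and in PB cells.

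Some sequences outside the family had library patterns close to that of the family sum. Among 519 other sequences with a mean of at least 10 CPM, the nearest profiles over the 6 libraries, by root-mean-square difference of centred log2(CPM + 1), were those of MER85 (0.029), MSTD (0.034), MER21C (0.037), MER21B (0.037) and MER44C (0.038). The median difference over the 519 was 0.15, and among the members it was 0.015 for LTR12C and 0.039 for HERV9, which make up most of the sum, but 0.17 for LTR12B. MER85 had 399.8 and 390.7 CPM in clone 1 with and without dox, 380.2 and 354.3 CPM in clone 2, and 354.3 and 362.4 CPM in PB cells. The likeness is a description over 6 libraries of 3 lines, and the named profiles were picked as the closest of the 519. The median also covers sequences down to 10 CPM, whose profiles carry more counting error.

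Other class I retroviruses that are commonly grouped with HERV9, namely HERV17 (HERV-W) with LTR17, HERV30, HERV35, MER41, HERVFH19 and LTR19, gave 20 sequences, of which 19 were tested. In each of the 6 comparisons 0 of the 19 passed in either direction (edgeR, adjusted), against 0% to 1.72% of all 699. Their median log2 change with dox was -0.0069 in EXOSC3r cells and -0.047 in PB cells, and their median difference between EXOSC3r and PB cells was -0.015 with dox and 0.053 without. Over all 699 the medians were 0.0052, 0.0037, 0.0058 and 0.011 in the same order. The smallest p among them was that of MER41D over the 3 lines, where the change with dox was -0.60 ± 0.17 on the log2 scale (SE, edgeR adjusted p = 0.17). MER41D had only 38 to 87 estimated counts per library, so its counting error is larger than that of any HERV9 or LTR12 sequence. LTR17, the LTR of HERV-W, had a log2 difference of 0.38 ± 0.16 between EXOSC3r and PB cells with dox (adjusted p = 0.61).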

How the data were processed

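Total RNA was depleted of ribosomal RNA and made into strand-specific libraries, per the labels' protocols. The submitters' processing notes name bcl2fastq 2.17, Trimmomatic 0.36 and Salmon 0.13.0; the index, options, strand setting and genome build are not given in the sources used here. Per the file headers, the authors deposited an estimated count, a TPM value and lengths for each of 1047 sequences, 1045 of them named as repeats and 2 RefSeq transcripts (ACTB and GAPDH). The deposited TPM is relative to these sequences alone. Reads of a repeat inside another transcript also count for the repeat.

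Estimated counts were rounded to whole numbers. Sequences with at least 10 counts in at least 1 library were tested, which left 699 of 799 with any count and all 7 HERV9 and LTR12 sequences. The test was edgeR 4.0.16 (R 4.3.3), quasi-likelihood, with TMM scaling, 4 group means (2 residual degrees of freedom) and Benjamini-Hochberg adjustment at 0.05 over all 699; the fit over the 3 lines had the line as a block. Standard errors were taken from the fitted change and its F statistic (change over root F), and 95% intervals use the t distribution with the moderated degrees of freedom. With 4 group means, the p-values rest on the spread between 2 clones within an arm, moderated over all sequences. In the fit over 3 lines they rest on how the dox change varied between the lines, moderated likewise. The biological coefficient of variation with 4 group means was 12.2%. No library repeats another: chi-square per degree of freedom was at least 20.9 for every pair. The code was tested on simulated counts.

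The dox and no-dox libraries of a clone share a line, and the clone number therefore pairs them. The fit with 4 group means did not use this pairing, so the gap between clones enters its standard errors. As a check, clone 1's distance from the mean of the clones was correlated between the arms, with Pearson's r of 0.17 (690 sequences) and 0.60 (253 sequences averaging 100 CPM or more). Alternatives were DESeq2 1.42.0 and its size factors, total counts, ACTB and GAPDH scaling, other count filters, limma 3.58.1 on log2(TPM + 1) and log2(TPM + 0.1), the line block, leaving out each clone library and summing the 7 sequences before the fit. No p is given for the sum.

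All 7 sequences were named in every comparison, together with the 5 nearest profiles and, of the related list, those with the smallest p; only some of these are given. HERVH, HERVK, Alu, ACTB and GAPDH were set for scale. The members, lists and tests were chosen with earlier results of these data known.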

Additional observations from a re-analysis of the deposited data

How the results depend on the processing

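None of the 7 sequences passed in any comparison under any of the 13 alternatives for single sequences (lowest adjusted p 0.063, LTR12E, EXOSC3r against PB with dox). Counts over all sequences moved more, and the causes were not tested. With total counts 2 passed for dox in PB cells, 0 for dox in EXOSC3r cells, 3 for EXOSC3r against PB with dox, 1 without dox, 1 for the difference of responses and 6 over 3 lines. With ACTB and GAPDH scaling these were 1, 0, 1, 1, 1 and 5. With limma on log2(TPM + 1) 3 passed in PB cells, 4 with dox, 1 without dox and 3 for the difference, and with log2(TPM + 0.1) 4 in EXOSC3r cells, 2 without dox and 6 for the difference. DESeq2 called 4 in EXOSC3r cells and 3 for the difference, DESeq2 size factors 0 in EXOSC3r cells, at least 10 counts in all 6 libraries 2 in EXOSC3r cells and 2 for the difference, and summing the family 2 in EXOSC3r cells. The line as a block called 9 in EXOSC3r cells, 22 for EXOSC3r against PB with dox and 3 for the difference, and no block called 0 over 3 lines; blocking changed no call among the 7. Leaving out 1 clone library gave 0 to 7 calls in PB cells, 0 to 2 in EXOSC3r cells, 3 to 11 between EXOSC3r and PB with dox, 0 to 1 without, 0 to 1 for the difference and 7 to 31 over 3 lines.

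Log2 values here are relative to the median shift of all sequences where that is over 0.1. Smaller shifts were left in: 0.089 for dox in PB cells and -0.041 in EXOSC3r cells with total counts, and 0.050 over 3 lines with ACTB and GAPDH scaling, each larger in size than the TMM values whose sign it turned. Signs near 0 turned for dox in PB cells with total counts (HERV9 0.077, LTR12C 0.031, LTR12D 0.012, LTR12F 0.081, sum 0.059) and for HERV9 with log2(TPM + 1) (0.0018), for LTR12 in EXOSC3r cells with total counts (-0.020), and over 3 lines with ACTB and GAPDH scaling (LTR12B 0.028, LTR12D 0.0066). Leaving out each clone library in turn gave ranges that cross 0. For dox in EXOSC3r cells they were -0.072 to 0.23 for HERV9, -0.016 to 0.049 for LTR12 (also -0.0049), -0.12 to 0.0051 for LTR12B, -0.0013 to 0.23 for LTR12C, -0.11 to 0.053 for LTR12D, -0.11 to 0.069 for LTR12E and -0.033 to 0.20 for the sum. Between EXOSC3r and PB without dox they were -0.020 to 0.28 for HERV9, -0.094 to 0.14 for LTR12C, -0.024 to 0.14 for LTR12D, -0.16 to 0.010 for LTR12E and -0.064 to 0.16 for the sum. For the difference of responses they were -0.062 to 0.24 for HERV9, -0.035 to 0.13 for LTR12D and -0.017 to 0.23 for the sum, and over 3 lines -0.015 to 0.085 for HERV9. Between EXOSC3r and PB with dox no sign turned, relative to the median, under any of these. Taking off the median undoes most of a change of scaling, so this does not check the scaling. Without that step, HERV9 and LTR12C turned negative with total counts and with ACTB and GAPDH scaling. Counting error alone gave the dox ratio of a member within 1 line an SE of 0.011 (LTR12C, PB cells) to 0.072 (LTR12, clone 2) on the log2 scale.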
